A study of Caenorhabditis elegans with 2 samples.

Results

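The protease genes followed here numbered 10: those for cathepsins and lysosomal aspartyl proteases of Caenorhabditis elegans named cpl-1, cpr-1, cpr-3, cpr-4, cpr-5, cpr-6, cpz-1, asp-1, asp-3 and asp-4. They were taken by gene name out of 19973 protein-coding genes on the 6 nuclear chromosomes, and all 10 names matched. The question was where the transcription factor HLH-30 sits at these genes. It was mapped by chromatin immunoprecipitation and sequencing (ChIP-seq) in whole hermaphrodites at the L4 larval stage. The strain, OP433, has the genotype unc-119(tm4063) III; wgIs433, in which wgIs433 is the transgene that makes HLH-30 with GFP and FLAG at its C-terminal end. Chromatin was recovered with an antibody against GFP, in 2 biological replicates that form 1 group, so the design holds no comparison of conditions. The tagged protein came from a transgene, the control library was not analysed here, and chromatin of all tissues of the animal was mixed. A peak therefore cannot be given to a cell type.

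Lysosomes break down material delivered by autophagy and endocytosis, and proteases do much of this work. Cathepsins L, B and Z are cysteine proteases, cathepsin D is an aspartyl protease, and all of them are made as inactive precursors that mature in acid compartments. HLH-30 is the worm counterpart of mammalian TFEB, which binds E-box sequences near lysosomal genes, cathepsin genes among them. The E-box most often tied to this family is the palindrome CACGTG, and a T just before it is typical of mammalian TFEB and its relatives.

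A site was counted for a gene if the summit of a thresholded peak lay inside the gene or up to 5 kb upstream of its annotated 5′ end. Trans-splicing is common in worms, which can leave the annotated 5′ end short of the true start. The thresholded list is the authors' own, made with the irreproducible discovery rate, and holds 7168 peaks on the build ce11. Of the 10 genes, 9 had at least 1 such summit and cpr-5 had none. Over all protein-coding genes the share with a summit by the same rule was 37.8%. Counting any overlap of the peak with the window also gave 9, against 38.8%. The 9 genes held 19 summits in all, a mean of 1.9 per gene over the 10 genes against 0.618 over all genes. The windows searched were of like length, with a median of 6742.5 bp for the 10 genes and 7027 bp for all genes. Genes are not independent replicates, and no chance test was made on so short a list.

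The palindromic E-box CACGTG lay within 50 bp of 6 of the 19 summits, and the related form CACATG within 50 bp of 1 more, at cpr-4. The sites that can be shown are printed below with 12 bases on each side, because these are the letters under the mapped summits. Capitals mark the E-box. Coordinates are on WBcel235, which is ce11, and the sequence is that of RefSeq's copy of the assembly. The strand given is the one printed. For a palindrome it is the plus strand.
cpl-1, E-box 3262 bp upstream, chrV:16598594-16598623, plus strand: acacattatgtgCACGTGatgatggaccct
cpr-1, E-box 120 bp upstream, chrV:11975416-11975445, plus strand: aaggaagggcagCACGTGagcactgagcac
cpr-4, E-box 159 bp upstream, chrV:6614500-6614529, plus strand: atggtgctgcgtCACATGactacctcctaa
cpr-6, E-box 611 bp inside the gene, chrX:6607804-6607833, plus strand: tatcacttcactCACGTGctcaaccattcc
asp-3, E-box 1953 bp upstream, chrX:6789096-6789125, plus strand: tcgtttcgcaatCACGTGtagtgtaacatg
asp-4, E-box 3853 bp upstream, chrX:13225301-13225330, plus strand: aatatggaaagtCACGTGaactcacacaac
The seventh site, a CACGTG 1111 bp upstream of cpz-1, is named only. Distances from the E-box centre to the summit were 6.5 bp at asp-3, 8.5 bp at cpr-6, 11.5 bp at cpz-1, 20.5 bp at cpr-4, 26.5 bp at asp-4, 29.5 bp at cpl-1 and 35.5 bp at cpr-1.

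**Figure D1:**
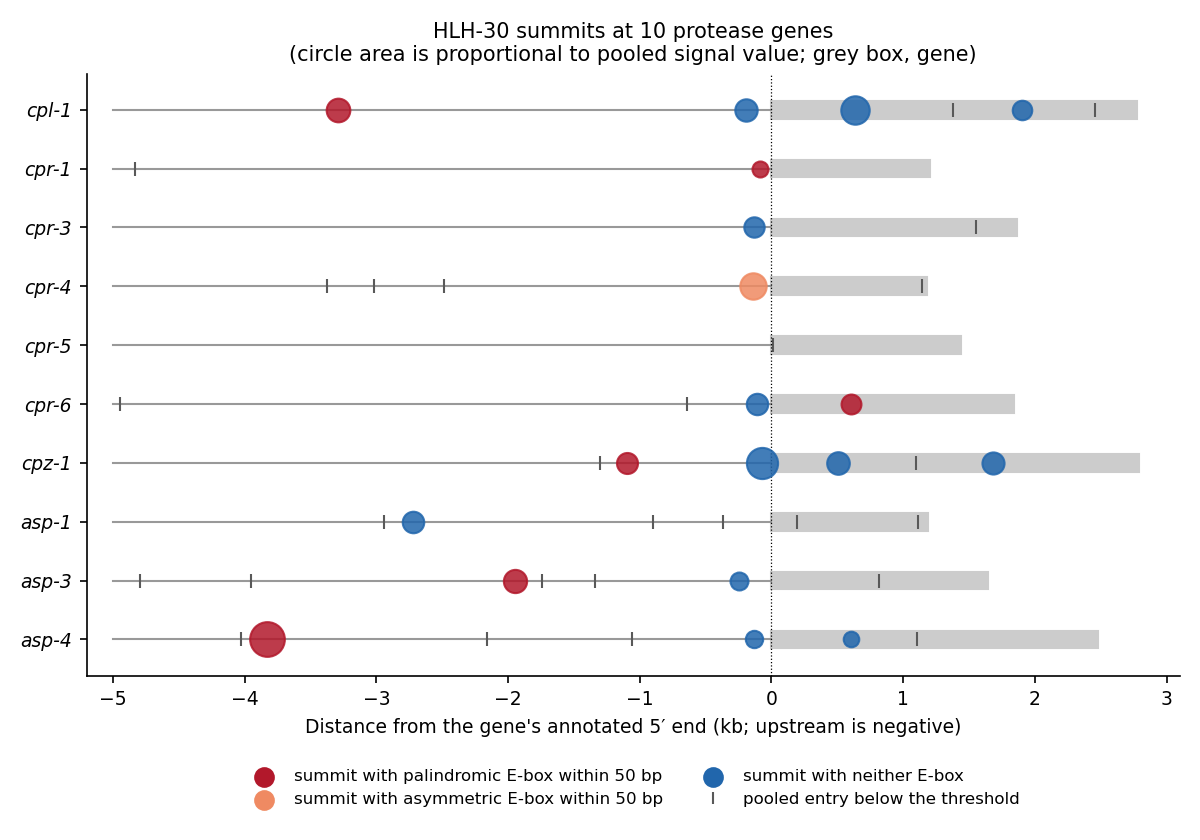
Positions of thresholded summits (circles, area proportional to the pooled signal value) and of weaker pooled entries (ticks) at each gene, by distance from the annotated 5′ end in kb, with the gene drawn as a grey box. Of the 9 genes with a summit, 8 have one within 300 bp upstream of the 5′ end, a count given with no share over all genes. The circle with the highest value, 174, lies 3827 bp upstream of asp-4.

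The gene cpl-1 encodes cathepsin L, which is needed for yolk processing in embryos. It carried 4 summits, as many as cpz-1 and more than any other of the 10 genes. The strongest lay in an intron, 633 bp inside the gene (chromosome V, 16594623 to 16594790), with a pooled signal value of 117. A second annotated 5′ end of cpl-1 lies further inside the gene, and this summit falls in the promoter window of that shorter transcript. The signal value is the authors' score per peak. Its scale is unstated, so it only describes peaks within one list. In replicates 1 and 2 this site had values of 65.1 and 52.0, or 58.5 ± 9.25 (SD, n = 2). The next was the site with CACGTG far upstream (chromosome V, 16598463 to 16598812), with a pooled value of 80.7 and replicate values of 32.1 and 46.4. It lies between genes, and the nearest annotated 5′ end is that of T03E6.9, 2085 bp away. The summit 191 bp upstream of the gene's 5′ end had a pooled value of 72.3 and replicate values of 31.4 and 39.9. The summit furthest into the gene lay in an intron, 1903 bp from the gene's 5′ end and 468 bp from the second one. Its pooled value was 54.9, with replicate values of 30.6 and 23.9. Each replicate alone therefore held all 4 sites, and neither was the stronger throughout.

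The cpr genes encode cathepsin B-like proteases. The gene cpr-4, whose product is known to be secreted after irradiation, had 1 summit, 139 bp upstream (chromosome V, 6614360 to 6614709). Its pooled value was 100.5, above 74.02% of all thresholded peaks, and replicates 1 and 2 gave 56.2 and 42.5, or 49.3 ± 9.74 (SD, n = 2). This is the only one of the 19 summits with CACATG. The gene cpr-6 had 2 summits. One lay 112 bp upstream (chromosome X, 6606920 to 6607269), with no E-box of either form, a pooled value of 66.3 and replicate values of 39.6 and 29.6. The other lay in an intron 603 bp inside the gene (chromosome X, 6607635 to 6607984), over the CACGTG printed above, with a pooled value of 57.1 and replicate values of 21.03 and 40.0. The pair of cpr-6 sites thus stood in opposite order in the replicates.

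The gene cpr-3 had 1 summit, 133 bp upstream (chromosome V, 15298658 to 15299007), with a pooled value of 59.9 and replicate values of 34.2 and 25.3. The gene cpr-1, known as a cysteine protease gene of the gut, had the lowest signal of the 9. Its single summit, 85 bp upstream (chromosome V, 11975291 to 11975640), had a pooled value of 37.0, above 12.3% of thresholded peaks, and it holds a CACGTG. The replicate values were 14.3 and 19.2, and in replicate 1 the site ranked 8319, outside the strongest 7168 entries. The summit also falls in the exon of C52E4.17, an annotated noncoding RNA.

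The gene cpr-5 had no thresholded summit. Its window held 1 entry of the pooled list of 30000 peaks and background entries, in the 5′ UTR 11 bp inside the gene, with a signal value of 22.0 and rank 9623. The replicate values there were 12.9 and 10.6, or 11.7 ± 1.65 (SD, n = 2). The lowest value in the thresholded list was 31.9, so the entry lies under the threshold in a place where both replicates have a weak call. The nearest thresholded summit further upstream of cpr-5 was 15871 bp away.

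The gene cpz-1 encodes cathepsin Z, known for a part in moulting. It carried 4 summits, from 1684 bp inside the gene to 1100 bp upstream, a shorter stretch than at cpl-1. The strongest lay 70 bp upstream (chromosome I, 2689369 to 2689633), with a pooled value of 140.2, above 85.1% of thresholded peaks. Replicates 1 and 2 gave 66.1 and 75.3, or 70.7 ± 6.52 (SD, n = 2), at this site. The other 3 had pooled values of 73.8 in an intron, 70.4 in a coding exon and 63.8 upstream. The intron site, 508 bp inside the gene, had replicate values of 42.2 and 33.9. The exon site, 1684 bp inside, had 44.7 and 28.2, and it lies 35 bp from a second annotated 5′ end of cpz-1, inside the promoter window of that shorter transcript. The upstream site, 1100 bp away, had 29.4 and 36.0 and was the only one of the 4 with CACGTG.

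The aspartyl protease genes were the second group. The gene asp-4, whose product is a cathepsin D-like protease known for its part in necrotic cell death, had the strongest summit of all 19. It lay 3827 bp upstream (chromosome X, 13225164 to 13225413), with a pooled value of 174, above 90.03% of thresholded peaks, and replicate values of 95.2 and 79.5, or 87.4 ± 11.1 (SD, n = 2). This summit is nearer to skr-19, a gene of the Skp1-related family, whose 5′ end lies 581 bp away and whose promoter window holds it. The 2 summits next to asp-4 were weak. The one 129 bp upstream had a pooled value of 43.4 and replicate values of 26.0 and 17.7. The one in an intron 606 bp inside the gene had 34.9, with 9.35 in replicate 1 and 23.3 in replicate 2.

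The gene asp-3, also cathepsin D-like and tied to necrosis, had 2 summits. The stronger lay 1947 bp upstream (chromosome X, 6788942 to 6789291), with a pooled value of 77.8 and replicate values of 35.5 and 42.5, and held a CACGTG 6.5 bp from its summit. It falls in a coding exon of sgca-1, the alpha-sarcoglycan gene, 49 bp from an annotated 5′ end of that gene. The summit at the promoter of asp-3 itself, 243 bp upstream, had a pooled value of 46.4. Its replicate values were 16.9 and 40.01, and the replicate summits stood 117 bp apart. The strongest summits of asp-3 and asp-4 are thus both nearer to the 5′ end of a neighbour than to that of the protease gene.

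The gene asp-1, an aspartyl protease gene of the intestine, had its only thresholded summit 2725 bp upstream (chromosome V, 19053302 to 19053651). Its pooled value was 66.8, and replicates 1 and 2 gave 30.9 and 36.8, or 33.9 ± 4.16 (SD, n = 2). A further entry 896 bp upstream, closer to the gene, ranked 7183 in the pooled list with a value of 31.8, just under the lowest thresholded value of 31.9. Its replicate values were 21.7 and 13.1. The weakest thresholded site among the 10 genes, in the intron of asp-4, stood just above that limit at 34.9.

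**Figure D2:**
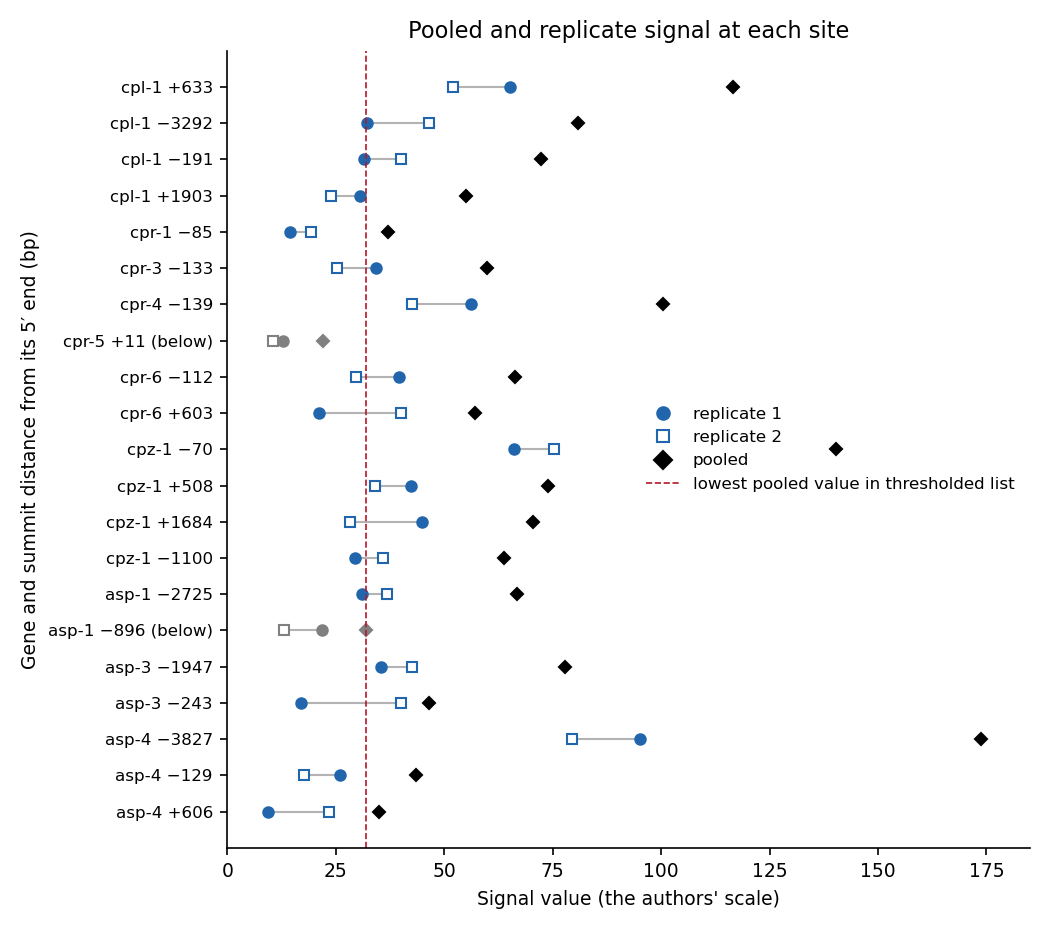
Signal value of each thresholded site in the pooled list (diamonds), replicate 1 (filled circles) and replicate 2 (open squares), with the strongest weaker entries of cpr-5 and asp-1 in grey and the lowest thresholded value, 31.9, as a dashed line. Pooled values ran from 34.9 to 174, and the grey diamonds of asp-1 and cpr-5 stand at 31.8 and 22.0.

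As a group the 19 summits were close in height to the list as a whole. Their median pooled value was 66.8, against 61.8 for all thresholded peaks, 12 of 19 lay above that list median, and 1, the summit far upstream of asp-4, reached the level of 173 above which the strongest 10% of peaks lie. Over the 9 genes with a summit, the median of each gene's strongest value was 77.8, against 76.4 over the 7546 protein-coding genes with a summit. Both medians thus lay close to those of the whole list.

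Replicates were compared at each site. All 19 sites had an overlapping entry in each replicate, a count given here with no share over all thresholded peaks. The strongest 7168 entries of both replicates held 17 of them, likewise without such a share. The exceptions were the promoter of cpr-1 and the intron of asp-4, which missed that rank in replicate 1. By those entries of replicate 2 alone, 9 of the 10 genes had a summit, against 37.9% of all genes. By those of replicate 1 alone it was 8, without cpr-1, against 38%. The signal was higher in replicate 1 at 9 sites and in replicate 2 at 10, with a median ratio of replicate 1 to replicate 2 of 0.878, against 1.00 over all thresholded peaks. At 2 sites the ratio exceeded 2, the promoter of asp-3 and the intron of asp-4, where replicate 2 was 2.36 and 2.49 times replicate 1. Over all thresholded peaks, 11.0% had a ratio over 2 in either direction.

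**Figure D3:**
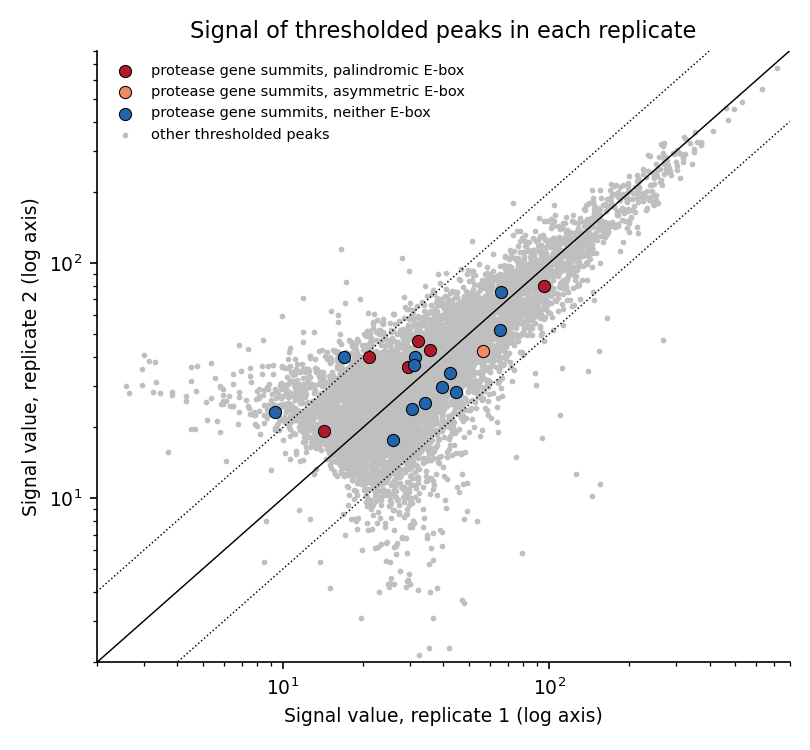
Signal value in replicate 1 against replicate 2, both on log axes, for the 19 protease gene sites (large circles, coloured by E-box) and for other thresholded peaks with an entry in both replicates (grey), with the line of equality and dotted lines at a ratio of 2. The 2 large circles above the upper dotted line are the promoter of asp-3 and the intron of asp-4.

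By position, 13 of the 19 summits lay upstream and 6 inside genes. Within 300 bp upstream of the 5′ end there was a summit at 8 genes, namely cpl-1, cpr-1, cpr-3, cpr-4, cpr-6, cpz-1, asp-3 and asp-4. No share over all summits or all genes is given here for these counts, so they draw no contrast with other genes. In promoter windows, from 1000 bp upstream to 200 bp downstream of any annotated 5′ end, 8 of the 10 genes had a summit, against 20.1% of all genes. With a reach of 2 kb upstream in place of 5 kb, 8 of the 10 had one, against 27.9% of all genes, and with 1 kb it was 8 against 23.1%. When each summit counted only for the gene with the nearest 5′ end, 9 of the 10 had one, against 21.7%. With only the 3584 strongest peaks, 7 had one, against 23.4%, and the genes lost were cpr-1 and cpr-3. With 2 or more summits there were 5 of the 10 genes, against 14.3% of all genes. A summit more than 1 kb and up to 5 kb upstream was found at 5 of the 10 genes, against 23.1% of all genes. Beyond the 5 kb limit no further summit was close: the nearest lay 13647 bp upstream of cpr-6, and the furthest one inside the limit was that 3827 bp upstream of asp-4.

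**Figure D4:**
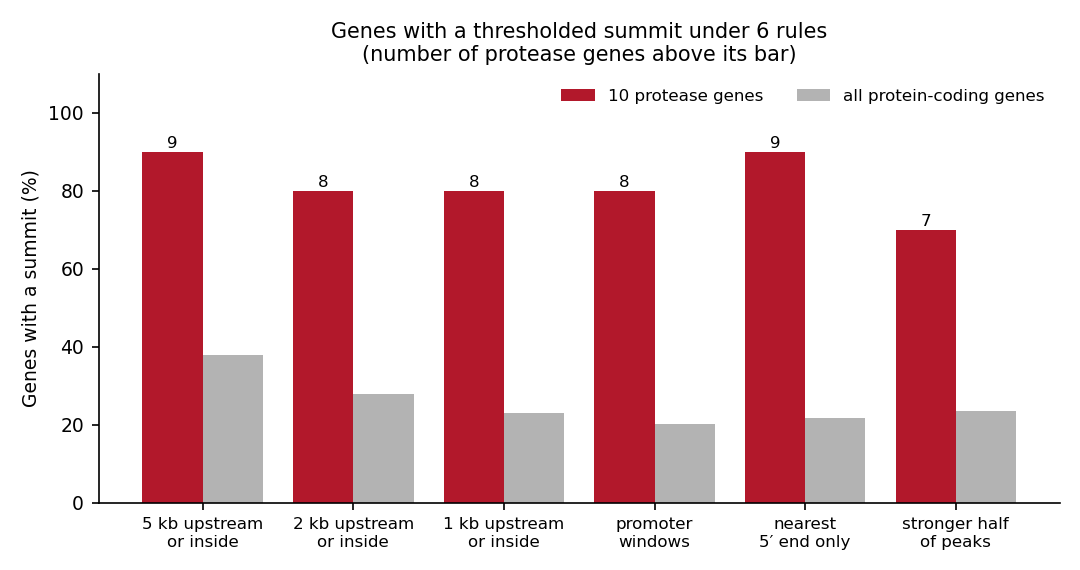
Share of genes with a thresholded summit, in percent, for the 10 protease genes (red, number of genes above each bar) and all protein-coding genes (grey) under 6 rules for the window or the peaks used. The protease genes stand at 7 to 9 of 10 under each rule, and all genes between 20.1% and 37.8%.

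CACGTG was found at 6 of 19 summits, against 11% of all thresholded summits, and CACATG at 1 of 19, against 15.2%. One or both were at 7 of 19, against 25.3%. The palindrome with a T just before it on either strand was at 6 of 19, against 6.75%. Taken by gene, 7 of the 10 had a summit with either form, against 11.8% of all genes. Most of all genes had no summit, and the 11.8% are 2351 genes out of the 7546 with any summit. Of the 10 genes, those without an E-box summit were asp-1, cpr-3 and cpr-5. These counts lean on summits that also belong to neighbours. The 3 summits whose nearest annotated 5′ end is that of another gene, far upstream of cpl-1, asp-3 and asp-4, all held CACGTG. Of the 16 whose nearest 5′ end is that of the protease gene, 3 held CACGTG and 4 either form, a share of 25%, against the 25.3% of all summits. Those 4 lay at 4 genes, cpr-1, cpr-4, cpr-6 and cpz-1. Summits with an E-box had a median signal of 77.8 and those without one 66.6, against 72.5 and 59.2 over all thresholded summits, and their ranges of 37.0 to 174 and 34.9 to 140.2 overlap.

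Most E-boxes around these genes had no summit. The windows of the 10 genes held 17 CACGTG sites, of which 6 lay within 50 bp of a thresholded summit (35.3%). Over the 6 nuclear chromosomes it was 4.66% of 17729 sites, a figure not matched for distance from genes. Nor was it matched for the number of summits, a mean of 1.9 per gene in these windows against 0.618 over all genes. Of 27 CACATG sites, 1 was near a summit (3.7%), against 3.55% of 34530. The other 11 CACGTG sites had no thresholded summit within 50 bp. For comparison with those above, the one nearest to the 5′ end is printed for each gene that has any, apart from cpz-1.
cpl-1, E-box 1234 bp upstream, chrV:16596566-16596595, plus strand: tataactttcagCACGTGaatttcgaaatt
cpr-4, E-box 4014 bp upstream, chrV:6610645-6610674, plus strand: gtctgcggattgCACGTGtcgctgaggttg
cpr-5, E-box 979 bp inside the gene, chrV:1133042-1133071, plus strand: cagcgccgcttaCACGTGtaaactcaccaa
cpr-6, E-box 647 bp upstream, chrX:6606545-6606574, plus strand: aacaggcaccgcCACGTGtgatgacttagc
asp-3, E-box 1620 bp upstream, chrX:6789429-6789458, plus strand: cttggttgcagtCACGTGagtaggagcttt
Of these 5, the site 647 bp upstream of cpr-6 had an entry of the pooled list within 50 bp, at a signal value of 14.05, and the others had none. The site in the intron of cpr-5 is the only CACGTG in the window of that gene.

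TGATAA, the sequence bound by GATA factors such as the intestinal regulator ELT-2, was also searched on both strands, since several cathepsin genes are known to be active in the intestine. This search was not planned in advance. TGATAA lay within 50 bp of 8 of the 19 summits, against 15.1% of all thresholded summits. These were 3 summits of cpl-1, 2 of cpz-1 and those of cpr-1, cpr-3 and asp-1, and all 8 were nearest to the 5′ end of the protease gene itself. The weak entry at cpr-5 held one as well, and so did entries under the threshold at cpr-4, cpr-6, asp-1 and asp-3. Their pooled values ran from 4.05 at asp-3 to 31.8 at asp-1. No share over all entries under the threshold is given for them, so they add no contrast. The 3 searched sequences differ in their letters, and 2 summits, those of cpr-1 and of the upstream site of cpz-1, held both an E-box and TGATAA. None of the 3 sequences was present at 6 of 19 summits, against 64% of all summits. A match is a run of letters, not evidence that a GATA factor was there. At cpl-1, cpr-3 and asp-1 the summits with TGATAA lack both E-box forms, and of their several matches the one nearest to a summit is printed for each gene, with TGATAA in capitals.
cpl-1, intron summit 1903 bp inside the gene, chrV:16593429-16593458, minus strand: ttgcattttggaTGATAAtgataagaaagc
cpr-3, summit 133 bp upstream, chrV:15298808-15298837, minus strand: tatcaacgaaggTGATAAttgatttcttga
asp-1, summit 2725 bp upstream, chrV:19053449-19053478, plus strand: acattttacaagTGATAAgaggtgctggaa

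**Figure D5:**
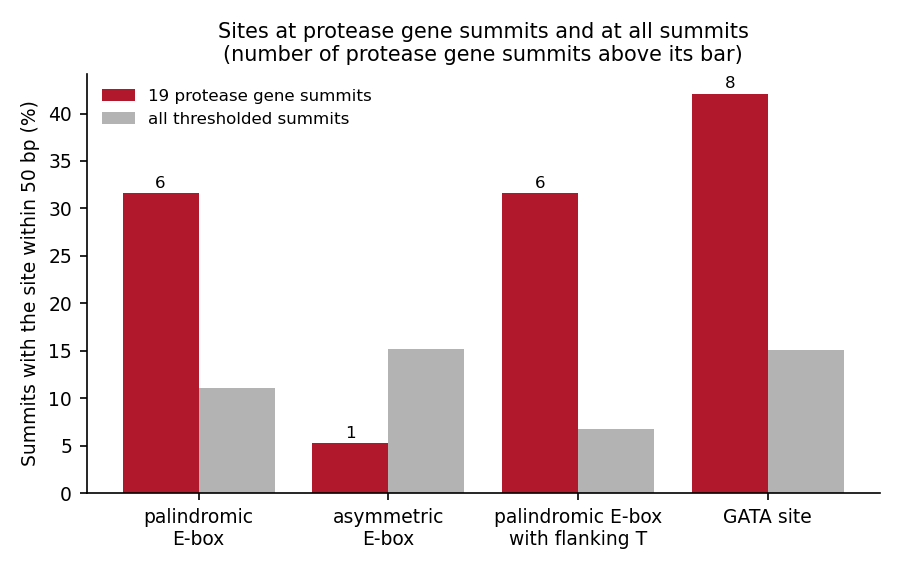
Share of summits, in percent, with each sequence within 50 bp on either strand, in the 19 protease gene summits (red, number of summits above each bar) and all 7168 thresholded summits (grey), for the palindromic E-box CACGTG, the asymmetric form CACATG, the palindrome with a T just before it on one strand, and the GATA site TGATAA. The red bars stand for 6, 1, 6 and 8 summits.

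Related genes served as a wider frame. These were 25 further genes: 4 cathepsin genes, 14 aspartyl protease genes of the asp class, the cystatin genes cpi-1 and cpi-2, whose products inhibit cysteine proteases, and 5 pcp genes for serine carboxypeptidases. Of the 25, 10 had a thresholded summit by the same rule (40%), close to the 37.8% of all genes. By class this was 3 of 4 cathepsin genes, 4 of 14 asp genes, both cystatin genes and 1 of 5 pcp genes.

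Among the cathepsin genes, cpr-9 had 3 summits, the strongest with a pooled value of 164 and replicate values of 97.5 and 69.5, at a transfer RNA gene whose nearest coding 5′ end is that of gcy-33. The gene cpz-2 had 3, with the strongest at 101 (52.01 and 49.1 in the replicates), nearest to ifbp-1. The gene cpr-2 had 1 at 43.9 (25.7 and 19.9), nearest to Y32B12B.2. The gene cpr-8, which has an intron within 5 kb upstream of cpr-5, had none. In this class the strongest peaks thus lay nearer to the 5′ end of a neighbour than to that of the cathepsin gene. They were still 855 bp upstream of cpr-9 and 815 bp upstream of cpz-2, within the reach of a promoter window, but 4102 bp upstream of cpr-2. In promoter windows of the gene itself, cpr-9 had 3 summits and cpz-2 had 1.

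Of the cystatin genes, cpi-2 had its summit 29 bp upstream of its own 5′ end, with a pooled value of 148 and replicate values of 78.5 and 70.4. For cpi-1 the strongest of 3 summits lay 3528 bp away in an intron of lag-1, at 80.9, and its replicates differed widely (17.1 and 67.6). Among the asp genes, asp-14 had 1 summit at 86.8 (39.1 and 46.4), nearest to fah-1. The genes asp-5 and asp-6 each had only a shared summit in an intron of asp-12, at 58.3 (24.3 and 35.5). The gene asp-12 had that summit and a stronger one, at 60.6 (27.9 and 31.3), nearest to C16D9.9. The summit counted for pcp-5, at 144 (59.4 and 87.0), lay 4191 bp upstream and nearest to ZK688.7.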

How the data were processed

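Peak lists in narrowPeak format on ce11 were used. Alignments, signal tracks and the ce10 lists were not analysed here. Per the deposited text of each sample, peaks were called against a control for each replicate and for both pooled, and 1 list was thresholded from these. Peak caller, aligner and threshold: not given in the sources used here. Each peak's signal value (column 7) is the authors' deposited score, on a scale not stated. Read counts were not used here, so depth is unknown and no interval was computed.

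Summits were joined to WBcel235 (Ensembl release 115) in Python 3.11.15 with pandas 2.3.3. A replicate's value for a site is that of its overlapping entry (at least 1 bp) with the nearest summit. Motifs were searched on both strands within 50 bp. Only the gene windows and a plain match of CACATG were tested on simulated data. All 10 genes are named. Other genes are named if they hold a summit or lie nearest to one. With 1 condition, no genes of like pattern were sought. The members, lists and motifs were chosen with earlier results of these data known, and no test was made.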

Additional observations from a re-analysis of the deposited data

How the results depend on the processing

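The count of protease genes with a summit, 9 of 10, stayed between 7 and 9 under every alternative run: a reach of 2 kb or 1 kb, promoter windows alone (8 each), any overlap of the peak or the nearest gene alone (9 each), and the 3584 strongest peaks (7). Leaving out one replicate gave 8 to 9 genes, 19 summits, 6 E-box summits, 9 to 10 summits with TGATAA and 10 related genes. The 19 by replicate 1 alone are not all the same sites. The promoter of cpr-1 and the intron of asp-4 ranked 8319 and 11785 there, outside the strongest 7168. Leaving out one replicate also gave a median percentile of the strongest entry, within its list of 30000, of 90.2 to 91.4, against 90.1 pooled. The thresholded peaks are the 7168 strongest entries of the pooled list, so a high percentile follows from having one. No percentile for other genes is given here. The 3584 strongest peaks kept 12 of 19 summits. Within 25 bp of the summit, 4 of 19 held either E-box, against 14.4% of all summits, and 5 held TGATAA, against 7.83%. Within 100 bp the counts were 7, against 34.1% of all summits, and 12, against 26.2%. With 1 kb, 5 of the 25 related genes had a summit, against 23.1% of all genes. The search for TGATAA was not planned in advance, and its alternatives were chosen after seeing the data. No paired analysis was possible because there is 1 group. Depth is unknown, so a weak entry such as that at cpr-5 is one that did not reach the threshold, not an absence of binding.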

Other observations

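A further feature was noticed in the letters beside the E-boxes. All 6 CACGTG sites under summits of the protease genes had a T just before the palindrome on at least one strand, and so did the CACATG at cpr-4 on the strand printed. Of the 11 CACGTG sites in the same windows with no thresholded summit within 50 bp, 5 had it. Over the 6 nuclear chromosomes the T was present at 60.1% of the 827 CACGTG sites near a thresholded summit and at 39.0% of the 16902 others. For CACATG, read on the strand that spells it so, the shares were 49.6% of 1227 and 32.4% of 33303. The comparison was chosen after these sequences were seen, and the sites at the protease genes are part of the larger counts.

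The windows of the 10 genes also held 27 entries of the pooled list under the threshold, at least 1 at every gene, with a median signal value of 8.03. Of these, 2 had either E-box form within 50 bp, the one 642 bp upstream of cpr-6 and one 3371 bp upstream of cpr-4. No share over all genes or over all entries under the threshold is given here for these counts, so they do not set the protease genes apart.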
